A study of Mus musculus with 8 samples.

Results

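The myotendinous junction (MTJ) region of the control mouse diaphragm at the late fetal stage E18.5 (embryonic day) comprised 794 spots, 464 in control section 1 and 330 in control section 2, out of 5291 muscle spots and 5985 spots with at least 1000 unique molecular identifiers (UMIs, each counting 1 captured probe molecule) in these 2 sections. The whole series held 12703 such spots. Muscle spots were those whose mean log expression of 9 muscle genes (the titin and nebulin genes Ttn and Neb, Actn2, Des, the release channel gene Ryr1, and Acta1, Myl1, Mylpf and Tnnt3) lay above a cut set in each section by Otsu's method. MTJ spots, called junction spots here, were the top 15% of a section's muscle spots by the mean z-score of Col22a1, Ankrd1 and Map3k7cl. They were compared with the 3703 muscle spots below the top 30% of this score (2164 and 1539, called other muscle), and the muscle spots in between were left out. A spot is a capture area 55 µm wide, spaced 100 µm from the next, under a section 5 µm thick, and it can hold parts of several muscle fibers, tendon cells, fibroblasts and vessels, so a spot is a small region and not a cell.

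The MTJ is the end of the muscle fiber, where actin filaments are tied through integrin and dystrophin complexes to the basement membrane and on to tendon collagen. Nuclei near the fiber tip transcribe genes that other nuclei of the same fiber do not, as nuclei under the neuromuscular junction (NMJ) do in the middle of the fiber. In the diaphragm, fibers run from the ribs and the spine to the central tendon, so that MTJs lie at both ends and the band of NMJs, the endplate band, lies between them. Col22a1 encodes collagen XXII, a collagen of tissue junctions and a marker of the MTJ, Ankrd1 encodes a sarcomeric ankyrin repeat protein that is induced by stretch, and Map3k7cl encodes a protein that resembles the tail of the kinase MAP3K7.

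The study profiled formalin-fixed, paraffin-embedded mouse diaphragms with Visium probe-based spatial transcriptomics: 3 control sections at E14.5, 2 control sections at E18.5, and 1 section each of CaV1.1 knockout (KO) at E14.5, CaV1.1 KO at E18.5 and β-cat cKO at E18.5. CaV1.1 is the calcium channel that couples excitation to contraction in skeletal muscle, and its KO came from crosses of heterozygous mice. β-catenin was deleted from floxed alleles by HSA-Cre, which is driven by the human skeletal actin promoter and so acts in skeletal muscle. Some of the heterozygous crosses for the KO also carried HSA-Cre and floxed β-catenin alleles, and the cKO came from crosses of this kind. A mutant section may thus have carried alleles of the other line. Controls of both stages expressed CaV1.1 and β-catenin from at least 1 allele each, so a control may have carried a mutant allele, and each section is treated as 1 embryo. The 2 E18.5 control sections held 82859104 and 69837233 UMIs, the other sections 14179161 to 61092194. Junction spots summed to 12793469 and 9493155 UMIs, other muscle to 50714835 and 43543198.

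Levels below are UMIs of a gene per 1000000 UMIs of the summed region (CPM), and control section 1 precedes control section 2 wherever a pair of values is given. Fold changes come from a fit to the summed counts of the 5 control sections with TMM normalization, and are log2 values at E18.5 (n = 2 sections). The 12 genes of the rule were not tested, since they chose the spots, and their values are a description. Their score left a continuous edge. The last junction spot of section 1 had a score of 0.508 from 1, 3 and 3 UMIs of Col22a1, Ankrd1 and Map3k7cl, and the first spot outside had 0.508 from 0, 1 and 5 UMIs. In section 2 the last spot inside had 0.536 and the first outside 0.529, whereas the highest scores were 4.79 and 4.02.

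Col22a1 was at 274 and 350.5 CPM in junction spots against 11.5 and 11.2 in other muscle. Ankrd1 was at 113 and 169 against 14.2 and 20.8, and Map3k7cl at 229 and 196 against 27.5 and 19.98. On the log2 scale the fitted differences, with no test, were 4.50, 2.74 and 2.90. When each gene in turn was left out of the score that chose the spots, its difference was 3.71 for Col22a1, 1.73 for Ankrd1 and 1.89 for Map3k7cl, so each of the 3 was also higher in spots chosen by the other genes. The 9 muscle genes together took 11.2% and 11.1% of UMIs in junction spots, 13.4% and 13.7% in other muscle, and 5.04% and 3.90% in neighboring spots outside muscle. Junction spots thus drew a smaller share of their UMIs from these genes than other muscle did, and a larger share than the neighbors. In mixed spots, fewer cells of a type and less RNA per cell cannot be told apart.

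The promoter of Tigd4, a transposase-derived gene, is shown because it had the largest difference among the junction genes tested. The stretch is from RefSeq (GRCm38.p6) and runs 5′ to 3′ from 250 bases before to 50 bases after the start annotated in RefSeq, and capitals mark the letters CATTCC or GGAATG, the MCAT motif bound by TEAD factors, searched on both strands. Tigd4 lies on the plus strand at chr3:84593574-84597032 (gene intervals are from GENCODE), and the stretch at chr3:84593324-84593623.
Tigd4: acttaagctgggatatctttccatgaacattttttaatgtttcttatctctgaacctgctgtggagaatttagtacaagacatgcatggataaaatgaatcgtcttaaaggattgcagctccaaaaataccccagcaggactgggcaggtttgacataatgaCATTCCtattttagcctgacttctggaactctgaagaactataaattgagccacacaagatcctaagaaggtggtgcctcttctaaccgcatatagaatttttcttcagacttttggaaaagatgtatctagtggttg
The Tigd4 stretch held 1 match, while 4817 of all 32851 promoter entries (14.7%) held the motif. Of the 14 genes named below as higher, 11 had an entry and 2 held it (Ecrg4, C1qtnf3). Of the 10 named as lower, 8 had an entry and 1 held it (Myh4). Of 12 genes of junction nuclei described below, 10 had an entry and 1 held it (Tigd4). Ankrd1 (chr19:36111961-36120099, minus strand) had an entry with 2 matches, which is not printed because its window lies within the GENCODE interval of the gene. Col22a1 (chr15:71795795-72034227, minus strand) and Map3k7cl (chr16:87553330-87595336, plus strand) had no entry.

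Junction spots lay at the margin of the muscle and next to each other. Their median distance to the nearest spot outside muscle was 200 µm in both sections, against 458 and 600 µm for other muscle. Of junction spots, 35.8% and 31.5% had such a spot within 150 µm, against 4.94% and 4.61% of other muscle, and 81.7% and 90.6% touched another junction spot. The median depth of a junction spot was 26252 and 27420.5 UMIs, against 22646 and 27844 in other muscle. The margin position was not part of the rule, which read no coordinates.

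**Figure D1:**
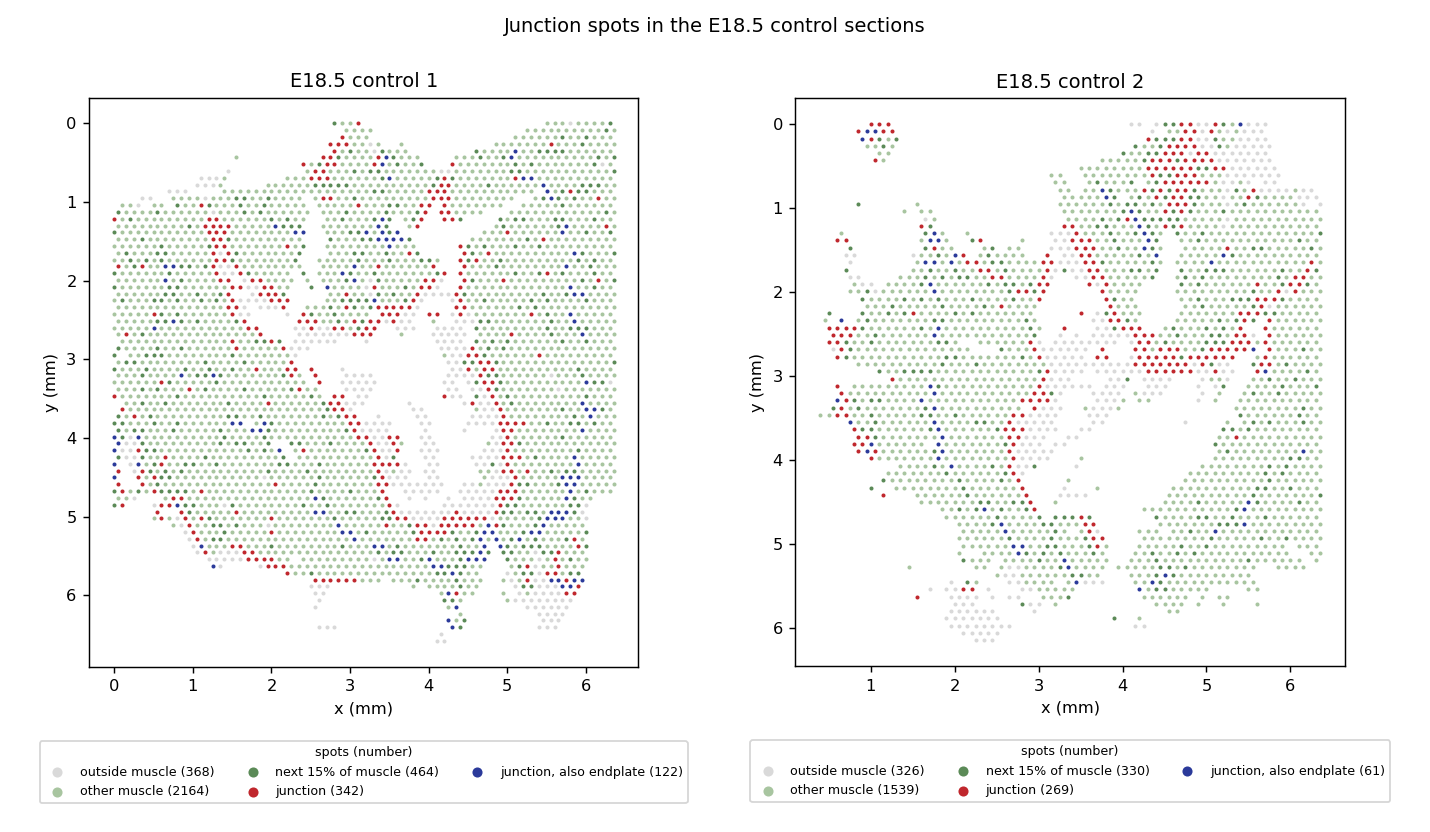
Map of the spots of the 2 E18.5 control sections, drawn at their positions (axes in mm), with spots outside muscle, other muscle, the next 15% by the score, junction spots and junction spots that were also endplate spots in separate colors. Junction spots form runs along the margins of the muscle, and those that were also endplate spots mostly lie deeper.

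The fall of the junction genes with depth into the muscle was steep. From muscle spots within 150 µm of tissue outside muscle to those more than 550 µm away, Col22a1 went from 274 and 298 to 21.3 and 21.6 CPM and Tigd4 from 35.3 and 37.5 to 2.24 and 2.92. Uchl1, a ubiquitin hydrolase best known from neurons, went from 179 and 219 to 29.5 and 41.3. Ankrd1 and Map3k7cl fell by a smaller factor. Ankrd1 was at 85.3 and 115 in the nearest bin and at 28.3 and 39.4 in the farthest, and Map3k7cl at 184 and 120 against 54.8 and 46.1. Myh4, the fast IIb myosin heavy chain, had the opposite order, with 85.6 and 111 in the nearest bin and 211 and 310.3 in the farthest. These bins hold all muscle spots and do not use the score.

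**Figure D2:**
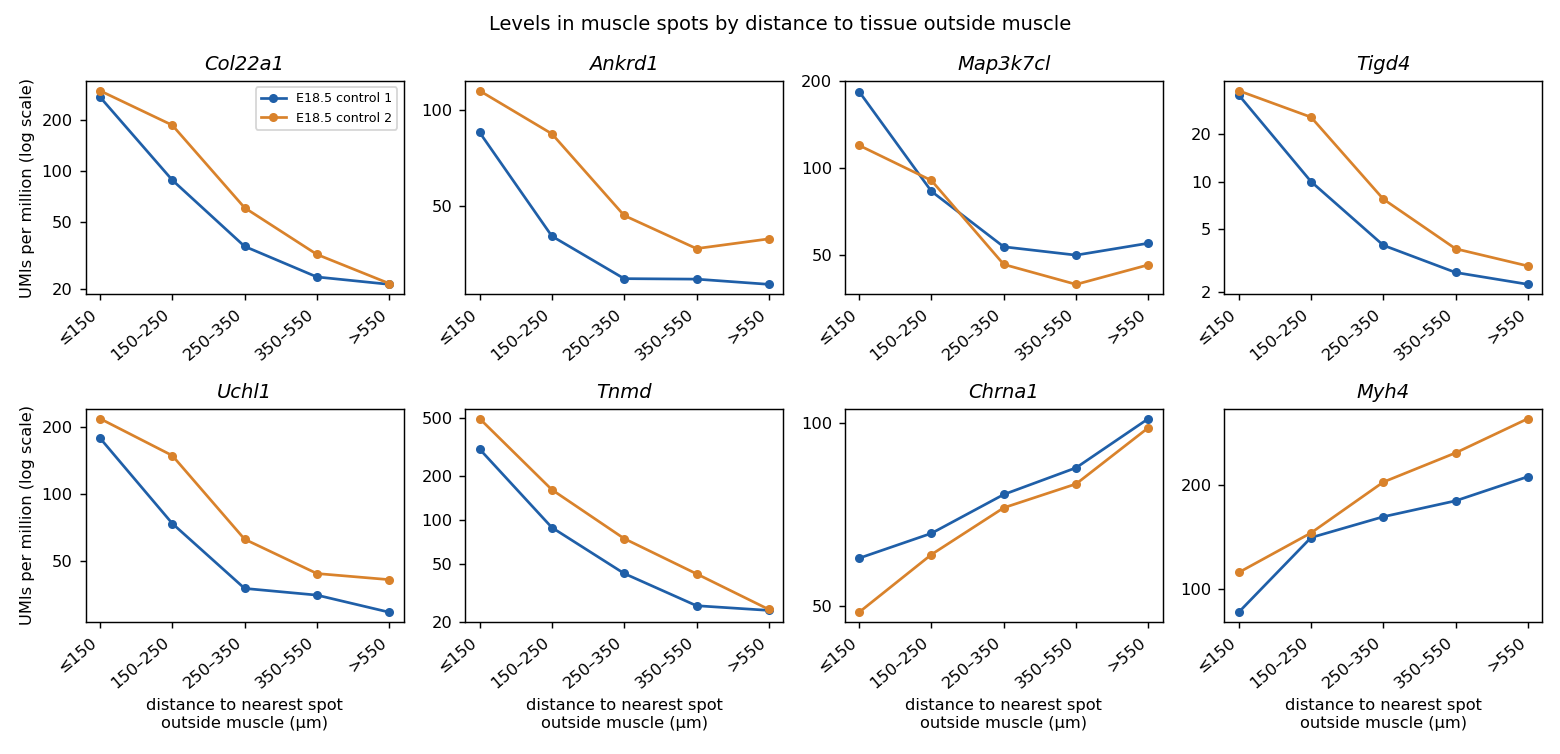
Level (CPM, log axis) of junction, tendon, endplate and mature fiber genes in muscle spots binned by distance to the nearest spot outside muscle (µm), 1 line per E18.5 control section. Col22a1 and Tigd4 fall from the margin inward in both sections, and Myh4 rises.

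Not all junction spots were of this kind. Of the 464 junction spots of section 1, 122 (26.3%) were also among the top 15% of muscle spots by a score of 8 endplate genes, as were 61 of 330 (18.48%) in section 2. Of other muscle, 10.3% and 11.1% were endplate spots. Spots in both classes lay deep, at a median of 436 and 700 µm from tissue outside muscle, whereas the remaining junction spots lay at 173 µm in both sections. In the E14.5 controls 0, 1 and 1 junction spots were in both classes.

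The spots in both classes differed from the rest of the junction in which score gene was high. Col22a1 was at 63.3 and 61.5 CPM in them and at 349 and 419 in the remaining junction spots. Map3k7cl had the reverse order, at 272.2 and 266 against 214 and 179.6, and Ankrd1 was at 107 and 109 against 115 and 184. Endplate spots outside the junction had Col22a1 at 8.82 and 11.4, Ankrd1 at 22.3 and 30.01 and Map3k7cl at 85.5 and 72.9. Col22a1 stood above its level in other muscle in both kinds. Tigd4 followed Col22a1, at 5.40 and 13.2 against 41.6 and 50.8, as did Uchl1, at 67.2 and 86.7 against 211 and 265. Chrna1, the α subunit of the muscle acetylcholine receptor, was at 327 and 391 in spots of both classes, at 46.4 and 45.4 in the remaining junction spots, and at 244 and 243 in endplate spots outside the junction. Nav3, a neuron navigator protein, and Cited1, a transcriptional coregulator, were nearly level between the kinds: Cited1 was at 87.9 and 90.0 against 81.2 and 85.2. Because endplate genes took part in choosing the kinds, these values are a description with no test, and results that turned on the overlap are given with and without it.

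**Figure D3:**
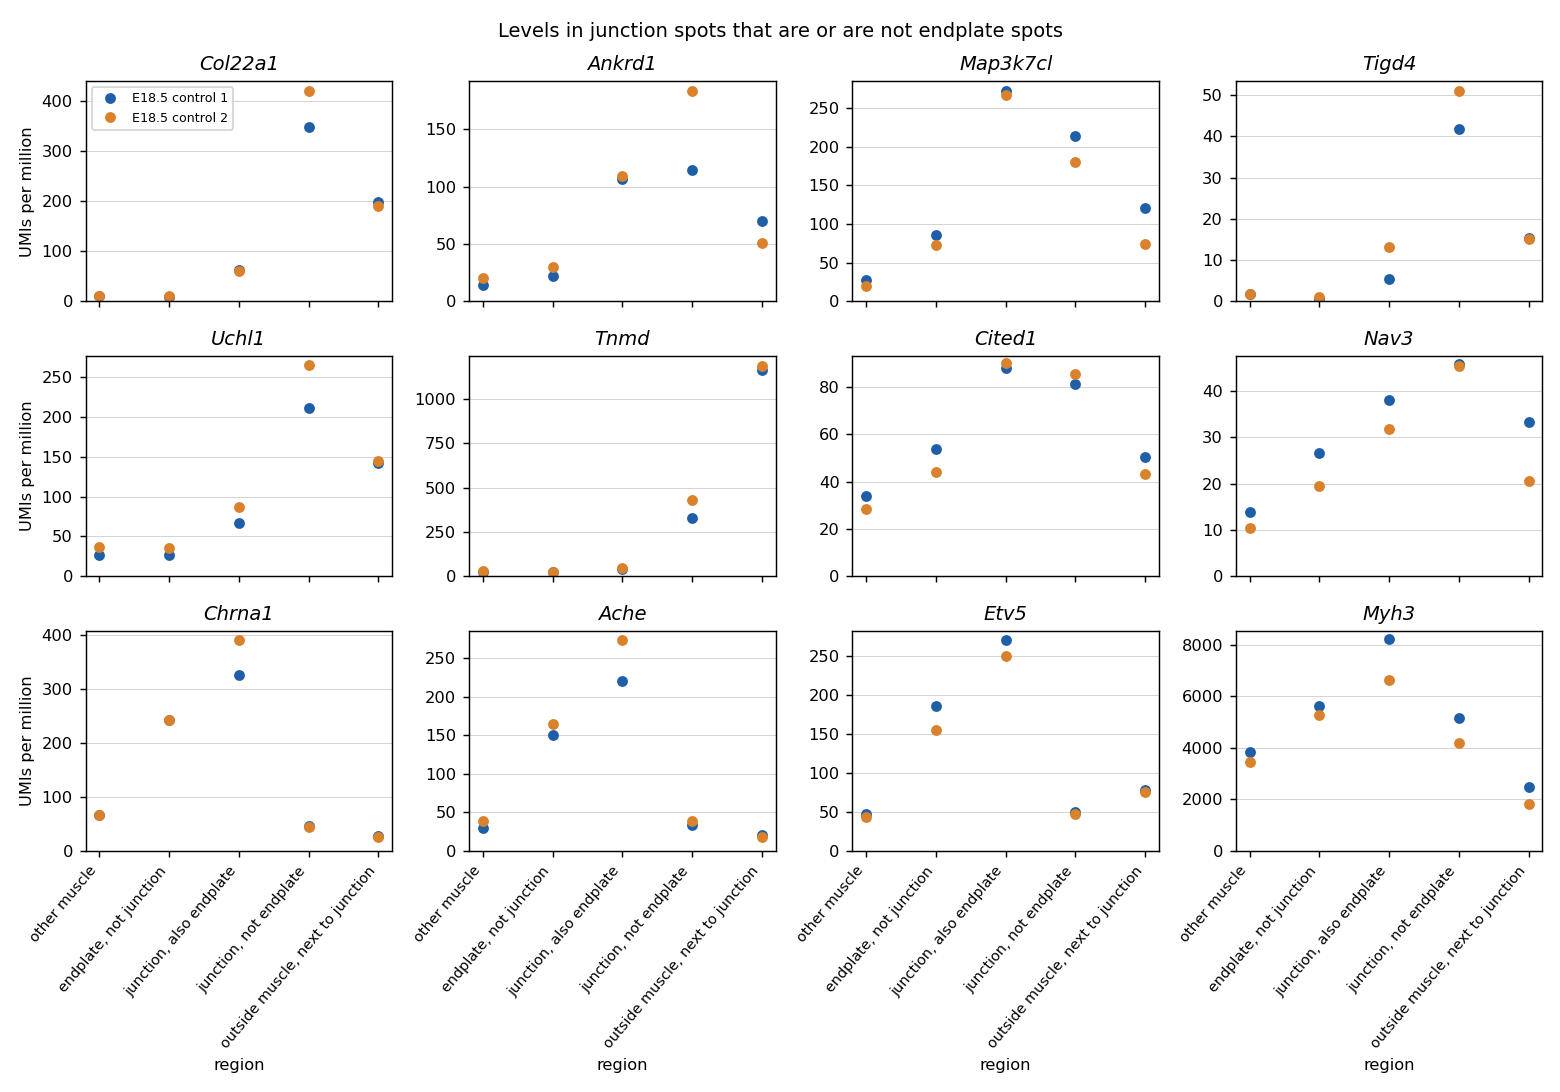
Level (CPM) of score genes and selected other genes in other muscle, junction spots that were not endplate spots, junction spots that were, endplate spots outside the junction, and neighboring spots outside muscle, 1 point per E18.5 control section. Col22a1, Tigd4 and Uchl1 are highest in junction spots away from endplates, and Chrna1 where both classes meet.

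The first comparison asked which other genes differed between junction spots and other muscle of the same section. Of 13683 genes tested, 1380 were higher (10.1%) and 2984 lower (21.8%) in junction spots, or 31.9% in all, by edgeR's quasi-likelihood test with a block for the section and Benjamini-Hochberg adjustment. This split depends on the scaling. TMM put the median of all genes at -0.06, scaling to all UMIs of a region at 0.20 and scaling to the 9 muscle genes at 0.48, with 5462 higher and 925 lower or 9200 higher and 116 lower. Without section 1 2848 genes were called in all, and without section 2 2338, in place of 4364. All 1380 rises kept their call under the 3 scalings, but only 115 of the falls did. The other 2 scalings moved log2 fold changes up, by 0.26 and 0.54 at the median, so a TMM rise could hardly be lost. Here and below, a rise said to hold under every scaling thus adds little to its TMM call. A fall smaller than 0.26 turned positive when scaled to all UMIs, and a fall smaller than 0.54 when scaled to the muscle genes, so falls below are relative to the typical gene and are given as fallen under every scaling only where stated.

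The 14 named genes with the largest rises included 4 of the 12 tendon markers (Tnmd, Fmod, Col12a1 and Col11a1). Tnmd, which encodes tenomodulin and marks mature tendon cells (chrX:133850980-133865577, plus strand), was at 254 and 355 CPM in junction spots against 25.9 and 30.3 in other muscle. Its log2 fold change was 3.16 (SE 0.060, adjusted p = 3.87e-17, edgeR). Fmod, the collagen-binding proteoglycan fibromodulin, was at 212 and 414 against 36.8 and 61.6, and rose by 2.38 (SE 0.057). The groups did not overlap for either gene, but both were named for large rises, and the share of all genes without overlap was not counted. Ccn2, a matricellular protein and target of the Hippo pathway, was at 176 and 329.8 against 35.8 and 54.1 and rose by 2.19. Collagens and a collagen-associated gene rose together, Col12a1 by 1.65, from 70.8 and 72.2 to 227 and 319.8, Col11a1 by 1.46, from 57.5 and 64.3 to 173 and 232, and Abi3bp by 1.66, to 93.5 and 146. C1qtnf3 rose by 1.55, Prss35 by 1.59, the cartilage matrix gene Cilp by 1.44, Ecrg4 by 1.73 and the microfilament gene Gas2 by 1.67. All 14 rises held under the 3 scalings, which the upward shift of the other 2 scalings made nearly certain. They also held when the regions were set by position alone, where Tnmd rose by 3.38 and Col12a1 by 1.89. That setting compared muscle spots within 150 µm of tissue outside muscle with those 300 µm or more away. Since 11 of the 14 were higher still in neighboring spots outside muscle (below), their rise in this setting adds little to their call.

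Most of these genes were higher still outside the muscle. In the 243 neighboring spots outside muscle (155 and 88, within 150 µm of a junction spot), Tnmd was at 1165 and 1186 CPM, and 11 of the 14 genes were lower in junction spots than in these neighbors. The summed level of 12 tendon markers was 14993.5 and 23410.3 CPM in junction spots, 6633 and 9386 in other muscle, and 60267 and 86072 in the neighbors, and none of the 12 was at 0 in any of these regions. When muscle spots rich in tendon markers were left out of both regions, 12 of the 14 genes kept their call. Tnmd was then higher by 0.90, Fmod by 0.39 and Col12a1 by 0.28, while Ecrg4 (0.26) and Abi3bp (0.18) no longer passed. These spots were found by Col11a1, Col12a1, Scx and Antxr1, so the values of Col11a1 and Col12a1 without them are not independent of that choice. Leaving them out also changed which spots were junction spots. With TMM scaling, Col22a1 in junction spots was then at 86.9 and 165 CPM, in place of 331 and 409. Chrna1 was at 1.24 in place of 0.52 and Ache at 1.59 in place of 1.02, and 10 of 14 listed endplate genes were higher. Values without tendon-rich spots, here and below, thus come from regions that differed in more than tendon. When only muscle spots above the median muscle score were used, Ecrg4 (0.39), Gas2 (0.41) and Abi3bp (0.35) did not pass. The part of tendon tissue within the junction spots in these rises was not otherwise tested.

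The other 3 named rises were also higher than the neighbors with TMM. Uchl1 (chr5:66676091-66687234, plus strand) was at 174 and 231 CPM in junction spots, 26.9 and 37.1 in other muscle and 142 and 145 in the neighbors. It rose by 2.40 over other muscle (SE 0.052, adjusted p = 2.09e-16, edgeR) and was 0.82 higher than the neighbors, and it kept a rise of 1.55 with tendon-rich spots left out and of 2.06 by position alone. Kcnc4, a voltage-gated potassium channel subunit, was at 44.4 and 54.4 against 12.7 and 11.5, a rise of 1.75, and was 1.03 higher than the neighbors. Map1a, a microtubule-associated protein, was at 62.4 and 73.9 against 20.6 and 21.0, a rise of 1.44, and at 63.0 and 63.3 in the neighbors, so that in section 1 its level was no higher than theirs. Its difference of 0.44 from the neighbors did not hold when regions were scaled to all UMIs (0.09, adjusted p = 0.522, edgeR), where those of Uchl1 (0.47) and Kcnc4 (0.68) remained.

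**Figure D4:**
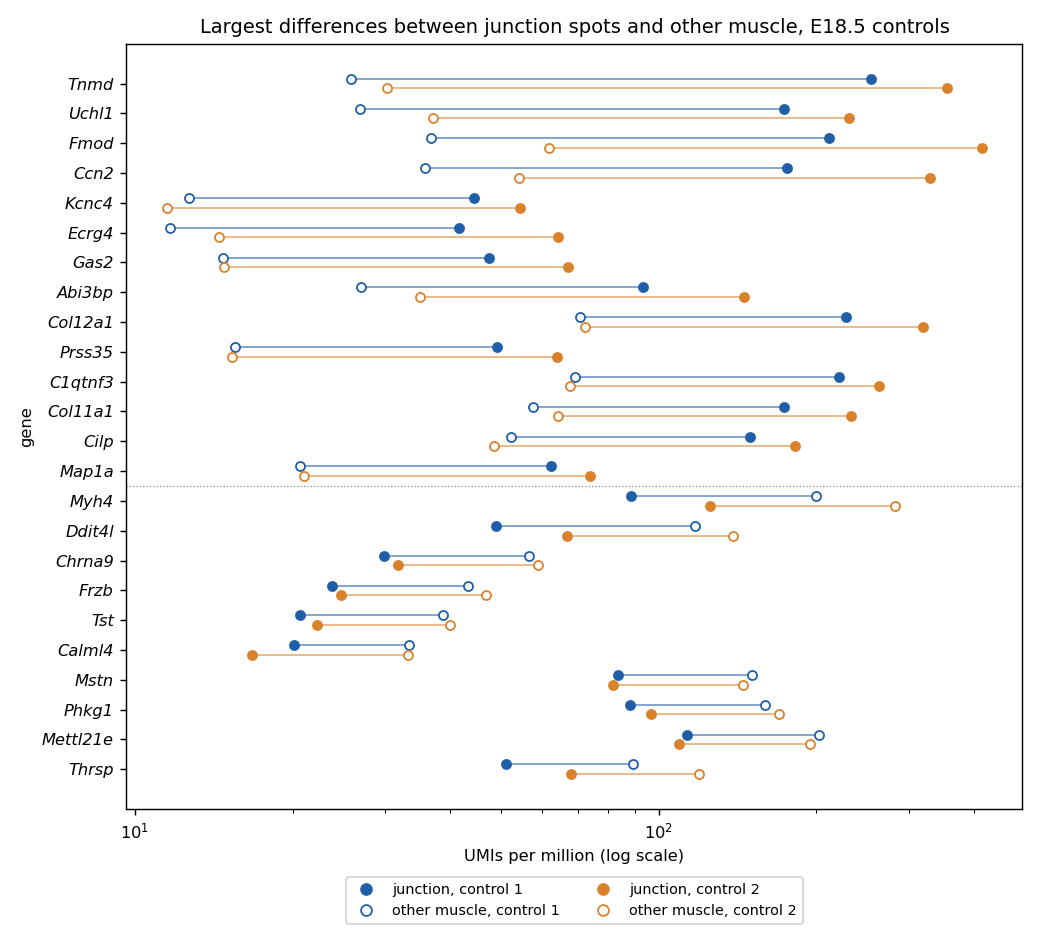
Level (CPM, log axis) of the 14 named rises and 10 named falls in junction spots (filled) and other muscle (open), 1 pair of points per E18.5 control section. In both sections each of the 14 rises sits above and each of the 10 falls below other muscle, and Tnmd has the widest gap.

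The 10 named falls were led by the fast myosin gene Myh4, and all 10 kept their call under the 3 scalings and by position alone. Myh4 (chr11:67238029-67260446, plus strand) was at 88.7 and 125 CPM in junction spots against 199 and 282 in other muscle, a log2 fold change of -1.44 (SE 0.064, adjusted p = 1.65e-11, edgeR). Ddit4l, an inhibitor of mTOR signaling, fell by 1.42, from 117 and 139 to 48.9 and 66.9. Mstn, which encodes myostatin, the inhibitor of muscle growth, fell by 1.102 (SE 0.053), from 151 and 145 to 83.7 and 82.0. The regions did not overlap for any of these, but they were named for large falls with the same direction in both sections. The share of all genes without overlap was not counted. Chrna9, an acetylcholine receptor subunit, fell by 1.17, the Wnt antagonist Frzb by 1.16, the sulfur transferase Tst by 1.14, Calml4 by 1.104, the phosphorylase kinase subunit Phkg1 by 1.098, Thrsp by 1.07, and the methyltransferase gene Mettl21e stood at -1.097. Against the neighbors outside muscle 8 of the 10 were higher in junction spots, and Tst and Calml4 were not called. The size of the falls varied with the setting. Without tendon-rich spots they were smaller, with Myh4 at -0.76, Ddit4l at -0.75, Chrna9 at -0.57 and Phkg1 at -0.56, and all 10 were still called. Against the muscle genes the 10 ran from -0.89 (Myh4) to -0.53 (Thrsp). Without endplate spots in either region all 10 were larger, with Myh4 at -1.60 and Ddit4l at -1.64. By position alone all but Calml4 (-0.86) were larger, with Myh4 at -1.64 and Ddit4l at -1.58.

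The second comparison set junction spots against the neighbors outside muscle. Of 12190 genes, 2951 were higher (24.2%) and 2731 lower (22.4%), or 46.6% in all, a split that turned to 1588 higher and 5627 lower when scaled to all UMIs. The 6 named rises were taken only from genes already called higher than other muscle, and they included genes of the endplate. Ache, the acetylcholinesterase gene, was at 82.5 and 84.3 CPM against 20.7 and 17.7, a log2 fold change of 2.44 (SE 0.144), and Chrna1 at 119 and 112 against 27.3 and 27.0, also 2.44. Ufsp1 rose by 2.38, the receptor subunit Chrnd by 2.19, the sodium channel subunit Scn3b by 1.89, and the IIx myosin heavy chain Myh1 by 1.80, from 736 and 792 to 1697 and 2584. Against other muscle the 6 rose by this choice, Ache by 1.02, Scn3b by 0.99, Ufsp1 by 0.73, Chrna1 by 0.52, Chrnd by 0.38 and Myh1 by 0.35. These rises turned with how the junction was set. By position alone Ache was at -0.77, Chrna1 at -1.12, Ufsp1 at -1.096, Chrnd at -0.78, Scn3b at -0.62 and Myh1, which did not pass, at -0.13. Without section 1 the second comparison called 3726 genes in place of 5682.

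Of the 1380 genes higher in junction spots than in other muscle, 1321 could be tested against the neighbors, and 193 were higher there too, 719 lower and 409 not called. Scaled to all UMIs, 112 were higher and 959 lower. Of the 193, 155 kept their rise over other muscle without endplate spots, 124 without tendon-rich spots, 125 in spots away from both the edge and endplates, and 65 by position alone, and 50 did so in all 4. Of the 50, 33 were also higher than the neighbors with all UMIs. The genes named next were picked from these 50 after their values were seen. Tigd4 was at 32.2 and 43.6 CPM in junction spots, 1.72 and 1.91 in other muscle and 15.3 and 15.2 in the neighbors, a rise of 4.10 over other muscle (SE 0.174, adjusted p = 8.33e-12, edgeR) and of 1.61 over the neighbors. Ostn, which encodes the secreted peptide musclin, was at 12.1 and 10.0 in junction spots, 0.749 and 0.965 in other muscle and 7.204 and 6.87 in the neighbors. Nav3 was at 43.9 and 42.8 against 13.8 and 10.3 in other muscle and 33.3 and 20.6 in the neighbors.

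Others of the 50 encode transcription regulators, adhesion proteins or filament proteins. Klf5, a zinc finger factor active in myoblast differentiation (chr14:99298691-99315036, plus strand), was at 64.5 and 75.9 CPM in junction spots, 24.1 and 32.1 in other muscle and 48.9 and 44.7 in the neighbors, a rise of 1.07. Cited1 was at 82.9 and 86.2, against 33.7 and 28.6 in other muscle and 50.4 and 43.2 in the neighbors, a rise of 1.17. Nes, the intermediate filament nestin that is kept at NMJs and MTJs of adult fibers, was at 268 and 249.8 against 133 and 113 in other muscle and 144 and 89.8 in the neighbors, and rose by 0.81. Each of these stood above other muscle and above the neighbors in both sections. The 50 were kept for being called higher than both, so this order was favored by the choice. The neighbors lay outside muscle, and 8 of the 10 named falls, Myh4 (1.29) and Mettl21e (1.697) among them, were also higher in junction spots than there. A rise over the neighbors alone thus does not set a junction gene apart from other muscle genes. Npnt, an extracellular ligand of integrins, rose by 0.80 over other muscle and Frem2, a basement membrane protein, by 0.71.

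Gene lists describe the region by function, and their counts are to be read against the 10.1% higher and 21.8% lower of all genes with TMM and the 5462 higher and 925 lower of 13683 with all UMIs. Of 12 genes of junction nuclei, taken from work on MTJ nuclei and known markers, 9 were higher and none lower, and all 9 held under the 3 scalings. Tigd4 rose by 4.10, Slc24a2, a potassium-dependent sodium-calcium exchanger, by 2.45, Uchl1 by 2.40 and Nav3 by 1.57. The list's median stood 0.44 above that of all genes tested, 0.64 by position alone, and 0.23 without tendon-rich spots, where 4 of 12 were called higher. The main shift was not particular to this list. The median of 14 endplate genes, relative to all genes tested, was 0.43, with -0.68 by position alone and 0.95 without tendon-rich spots. Slc24a2 was low, at 4.14 and 7.06 CPM against 0.572 and 1.15. Of the 9, Fras1 (0.14), Prss23 (-0.19) and Col24a1 (-0.32) were not called against the neighbors outside muscle. The authors show Uchl1 as an MTJ marker in these same data, so the list is not fully independent of them.

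**Figure D5:**
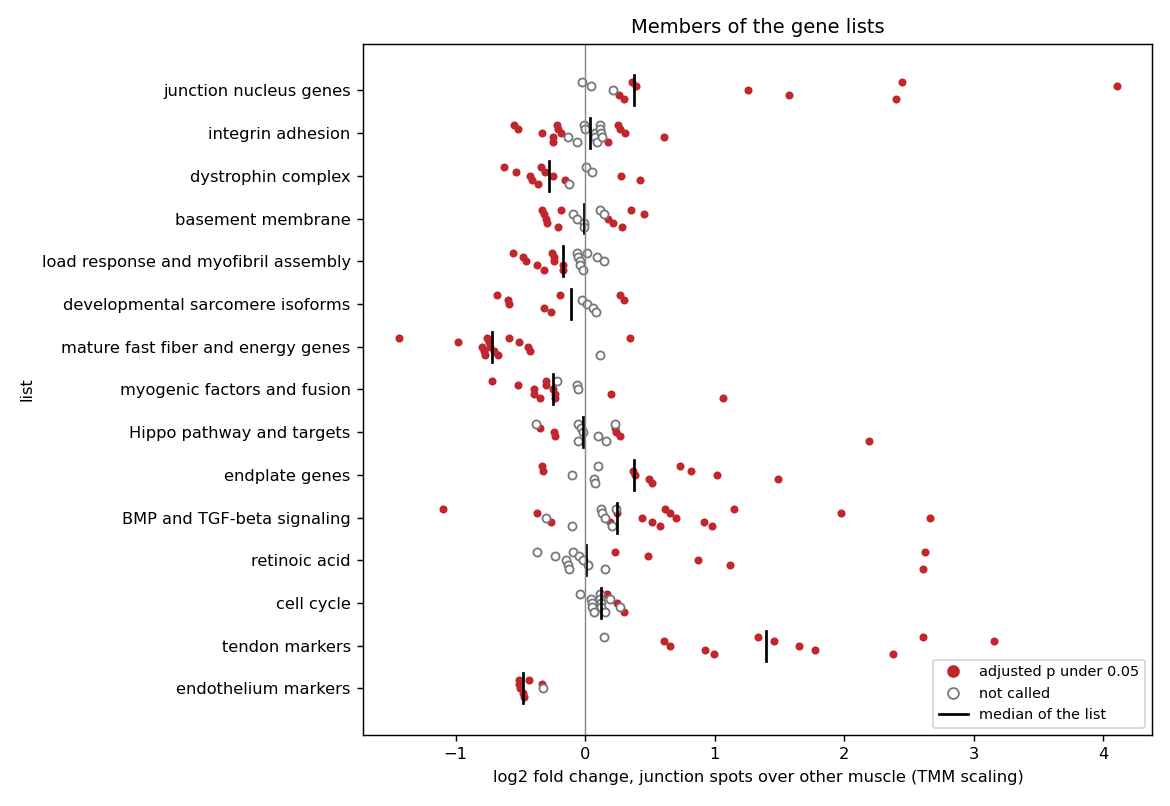
Log2 fold change between junction spots and other muscle at E18.5 for the tested members of each gene list, 1 point per gene, filled where called, with a bar at the median of each list and a line at 0. The bars of tendon markers, junction nucleus genes and endplate genes lie to the right of 0, and that of mature fast fiber genes to the left.

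The links between fiber and matrix were mixed. Of 24 genes of integrin adhesion, 5 were higher and 8 lower with TMM, and scaled to all UMIs 15 were higher and 1 lower. The 5 that rose under every scaling were Actn1 (0.61), Itga5 (0.30), Itgav (0.27), Itga7 (0.26) and Itgb1 (0.18), of which only Actn1 is among the 4 largest changes of the list and the others are given because they are few. Itga7, the laminin-binding integrin subunit of the MTJ, was at 150.2 and 143 CPM in junction spots, 104 and 101 in other muscle and 67.2 and 63.8 in the neighbors. By position alone its difference was -0.09, which did not pass the test. The fall of the muscle integrin partner Itgb1bp2 (-0.55) held with all UMIs (-0.29) and was lost against the muscle genes (-0.01). Those of Lims2 (-0.52) and Tln2 (-0.34) were lost in both.

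Of 14 dystrophin complex genes, 2 were higher and 9 lower with TMM, and 4 were higher and 4 lower with all UMIs. Sntb1 fell by 0.54 and Sgca by 0.43, and neither fall held against the muscle genes. Dtnb rose by 0.42, as did Utrn, utrophin, the dystrophin homolog at NMJs and MTJs, by 0.28, from 64.2 and 61.8 to 90.8 and 92.8 CPM. Both rose under every scaling, and Utrn was named because only 2 did. By position alone Utrn was at 0.07 and did not pass. Of 17 basement membrane genes, 5 rose under every scaling, with Col6a3 at 0.45 and Lamb2 at 0.35, while 6 fell with TMM, led by Col15a1 (-0.33) and Nid2 (-0.32), and none of the 6 did with all UMIs. Without tendon-rich spots 0 of 17 were higher and 1 lower.

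Of the 13 functional lists, that of mature fast fibers and energy metabolism had the lowest median. Of its 16 genes, 14 were lower and 1 higher, with a median 0.66 below that of all genes tested, and 12 were lower with all UMIs. The median was 0.94 below by position alone and 0.29 below without tendon-rich spots, where 13 of 16 were lower. The 5 that fell under every scaling were Myh4, Ckmt2 (-0.98), Eno3 (-0.80), Mybpc2 (-0.79) and Ckm (-0.78), which encode a myosin, mitochondrial creatine kinase, muscle enolase, fast myosin-binding protein C and muscle creatine kinase. Ckm was at 14901 and 13917 CPM in junction spots against 21172 and 19898 in other muscle. Myh1 was the exception, with a rise of 0.35, and by position alone it was at -0.13 and did not pass.

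Of 12 developmental sarcomere isoforms, 6 were lower and 2 higher with TMM. Myh3, the embryonic myosin heavy chain, rose by 0.27, from 3846 and 3461 to 5949.7 and 4673 CPM, and Tnnt2, the cardiac and embryonic troponin T, by 0.30, and both did under every scaling. By position alone Myh3 was at -0.16 and Tnnt2 at -0.20, and neither passed. In spots that were also endplate spots Myh3 was at 8219.5 and 6645, in the remaining junction spots at 5150.3 and 4204, and without endplate spots its difference of 0.13 did not pass. Myl3 (-0.68), Myl2 (-0.59), Myh8 (-0.59) and Mybph (-0.32) had the largest falls, of which Mybph lost its call with all UMIs and all 4 lost it against the muscle genes. Of 18 genes of load response and myofibril assembly, 10 were lower and none higher, led by Unc45b (-0.56), Myoz2 (-0.48), Ldb3 (-0.46) and Klhl41 (-0.37), but with all UMIs 8 were higher and 3 lower, and no call of this list held under all 3 scalings. Among 15 genes of myogenic factors and fusion, 10 were lower, with Myf6 at -0.72, Myf5 at -0.52 and Mymx at -0.40, and none of these held against the muscle genes, whereas Klf5 and Cdkn1a (0.20) rose under every scaling. By position alone Cdkn1a was at -0.06 and did not pass.

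Of 23 genes of BMP and TGF-β signaling, 13 were higher and 3 lower, and the 13 rises and the fall of Mstn held under every scaling. Grem1 (2.66) and Inhba (1.98) rested on few UMIs, at 0.625 and 1.69 CPM and at 0.156 and 1.37 CPM in junction spots, and Inhba was at 0.158 in other muscle of section 1, so that its rise was not seen in that section. Fst, which encodes follistatin, the binding protein that blocks myostatin and activins, rose by 1.15, from 7.59 and 11.1 to 22.1 and 27.2 CPM, and was higher still in the neighbors, at 64.2 and 66.3. The list stood 0.30 above all genes tested, and without tendon-rich spots 2 of 22 were higher and 2 lower. Of 16 retinoic acid genes 6 were higher and none lower. Cyp26b1, which degrades retinoic acid, was at 6.88 and 9.80 CPM in junction spots, 1.06 and 1.17 in other muscle and 39.0 and 52.5 in the neighbors, a rise of 2.61. Cyp26a1 (2.62), at 0.938 and 1.37 CPM, Crabp2 (1.12) and Crabp1 (0.87) were low as well, and without tendon-rich spots 1 of 15 was higher.

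Of 15 Hippo pathway genes and targets 4 were higher and 3 lower with TMM, with a median 0.05 above that of all genes tested. The 4 rose under every scaling, namely Ccn2, Tead3 (0.27), Wwtr1 (0.24) and Axl (0.23). The last pair was named because the list had few rises. Against the neighbors Ccn2 (-0.64) and Axl (-0.84) were lower, and Tead3 and Wwtr1 were not called. Without tendon-rich spots 2 of 15 were higher and 0 lower. Nuak2 was at -0.38 and did not pass, and Tead1 fell by 0.35 with TMM and lost the call with all UMIs (-0.08). Of 15 cell cycle genes 3 rose under every scaling (Tyms 0.30, Mcm3 0.24 and Mcm2), and none of the 15 was called without tendon-rich spots or away from edge and endplates. Of 14 endplate genes 8 were higher and 2 lower, with Etv4 at 1.49, Ache at 1.02, Etv5 at 0.82 and Ufsp1 at 0.73. Without endplate spots in either region 3 were higher and 7 lower, but endplate genes chose those spots, so this shift is not independent of the choice. By position alone 1 was higher and 11 lower. Against the neighbors outside muscle Etv4 was at -0.04 and was not called, while Ache (2.44), Ufsp1 (2.38) and Etv5 (0.69) were higher in junction spots.

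Markers of other cell types moved with the region in part. Of 12 tendon markers 11 were higher, with a median 1.46 above that of all genes tested. Of 8 endothelial markers 7 were lower, at a summed 526 and 507 CPM against 632 and 573 in other muscle, and no call held against the muscle genes. Of 6 hepatocyte markers 5 were higher, at a summed 723 CPM against 431 in other muscle and 10642 in the neighbors in section 1. In section 2 they summed to 0.316 CPM against 0.712 and 1.47, and 5 of 6 were at 0 in junction spots. Cartilage markers summed to 1170.2 and 235 CPM against 925 and 58.9, and 4 of 9 were higher. Of 10 fibroblast markers 1 was higher and 3 lower, of 5 smooth muscle markers 1 and 1, of 7 mesothelial markers 0 and 2, of 6 erythrocyte markers 0 and 4, and no marker of Schwann cells (0 of 7) or macrophages (0 of 7) was called. By position alone 11 of 12 tendon, 6 of 6 hepatocyte, 7 of 7 mesothelial, 6 of 7 macrophage and 6 of 10 fibroblast markers were higher at the margin. The part of these markers in the other results, the position values included, was not tested beyond leaving out tendon-rich spots.

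The third comparison divided the junction spots of each section into inner and outer spots, cutting at their median distance from the border of the captured tissue. Of 11668 genes 14 were higher (0.12%) and 11 lower (0.0943%) in inner spots, or 0.214% in all, and 444 had an unadjusted p under 0.05. Col2a1, the cartilage collagen, was at 206 and 55.2 CPM in inner spots against 1477 and 223 in outer spots, a log2 fold change of -2.50 (SE 0.157, adjusted p = 3.07e-09, edgeR), and Col9a2 fell by 1.42. Among the genes lower in inner spots outside cartilage, Cited1 was at 70.8 and 68.3 against 94.5 and 105 (-0.50, SE 0.093, adjusted p = 0.0163) and the imprinted gene Peg10 at 230.3 and 154 against 326 and 214 (-0.48, SE 0.095, adjusted p = 0.0289). The count was 6 without section 1 and 86 without section 2, and Cited1 and Peg10 did not pass without either section. Col9a2 fell by 0.49 without section 1 and did not pass. The 14 higher genes are known from the liver, and Alb, Afp and Fgb among them had no UMI in junction spots of section 2. Where a section met the edge of the capture area, that edge counted as its border. Col22a1, a gene of the score, was at 332 and 318 in inner and 219.8 and 384 in outer spots, so its order differed between the sections.

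The fourth comparison asked whether the difference between junction and other muscle changed from E14.5 to E18.5. The same rule gave 82, 86 and 87 junction spots in the E14.5 controls. Of other muscle at E14.5, 35.4%, 32.0% and 10.6% lay within 150 µm of tissue outside muscle, against 4.94% and 4.61% at E18.5. The other muscle of the 2 stages thus differed in position, and the part of this in the stage differences was not tested. Of 13683 genes 405 had a larger (2.96%) and 1070 a smaller log2 fold change at E18.5 (7.82%), or 10.8% in all. Without section 2 there were 688 in place of 1475. Tnmd differed by 2.01 (SE 0.095, adjusted p = 1.93e-10, edgeR), since its junction to muscle log2 ratio was 1.15, 1.25 and 0.99 in the E14.5 sections and 3.27 and 3.53 at E18.5. Uchl1 differed by 1.90, with ratios of 0.46, 0.56 and 0.42 against 2.67 and 2.62. The stages did not overlap for either gene, but both were named for large stage differences, and the share of all genes without overlap was not counted. Ufsp1 (1.94) and Ache (1.90) differed as well, from negative ratios at E14.5, where endplate and junction spots hardly overlapped.

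Genes that went the other way were led by Eef1a2 (-2.32, SE 0.652, adjusted p = 0.0264), the muscle and neuron elongation factor, Frzb (-1.92), Agt (-1.66) and Dok5 (-1.51). Eef1a2 did not pass without section 2, and at E14.5 it rested on few UMIs, at 0.685, 1.18 and 0.519 CPM in junction spots and 0.451, 0.239 and 0.226 in other muscle, against 375 and 393 and 548 and 584 at E18.5. Among the 14 named rises, 11 differed between the stages and 12 had the same sign at E14.5, and among the 10 named falls 4 differed and 9 had the same sign. These genes were chosen by the size of their change at E18.5, and 10.8% of all genes tested differed. Kcnc4, Abi3bp and Cilp were the rises not called for a stage difference. For Kcnc4 the log2 ratios were 2.51, 1.69 and 1.27 at E14.5 against 1.77 and 2.19. The score genes, not tested, had fitted differences of 2.69 (Col22a1), 2.39 (Map3k7cl) and 2.79 (Ankrd1) at E14.5.

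The fifth comparison set junction spots against endplate spots that were not junction spots, leaving out the 8 genes of the endplate score as well. Of 12615 genes 938 were higher (7.44%) and 1551 lower (12.3%), or 19.7% in all. Without section 2 there were 1110 in place of 2489. Tnmd was at 254 and 355 CPM against 21.3 and 22.5 (3.67, SE 0.092), Fmod rose by 2.70, Uchl1 by 2.58 and Ccn2 by 2.20. On the other side were Kcne1l, a potassium channel subunit, at 28.4 and 26.4 against 62.5 and 57.5 (-1.24, SE 0.085), Crym (-1.20) and Cd24a (-1.16). Uchl1 and Ccn2, like Tnmd and Fmod, were thus higher in junction spots than in either endplate spots or other muscle. Against the neighbors outside muscle only Uchl1 of these was higher in junction spots (0.82). Ccn2 (-0.64), Tnmd (-1.63) and Fmod (-2.14) were lower there than in the neighbors.

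The mutant sections gave 74 junction spots in the CaV1.1 KO at E14.5, 122 in the CaV1.1 KO at E18.5 and 237 in the β-cat cKO, with 1 section each and so no test. In the KO at E18.5 junction spots and other muscle both lay at a median of 173 µm from tissue outside muscle. Within 150 µm of it were 40.98% of junction spots and 36.9% of other muscle. These shares were 55.4% and 46.2% in the KO at E14.5, and 35.02% and 20.1% in the cKO. The rule thus separated the regions little by position in the KO sections, and the part of this in the ratios below was not tested. The log2 ratio of junction spots to other muscle for Col22a1 was 2.70 in the KO at E14.5, against 2.84, 2.87 and 2.08 in the controls of that stage, and 3.66 and 4.29 in the KO and cKO at E18.5, against 4.52 and 4.90. For Uchl1 it was 0.18 in the KO at E14.5, against 0.46, 0.56 and 0.42, and 0.16 and 2.56 in the KO and cKO at E18.5, against 2.67 and 2.62. In the KO section at E18.5 Uchl1 was at 35.7 CPM in junction spots against 31.8 in other muscle. The last junction spot of that section held 1, 1 and 0 UMIs of Col22a1, Ankrd1 and Map3k7cl. At E18.5 Map1a was at 0.54 and 1.78 in the KO and cKO, against 1.57 and 1.79, and Cited1 at 0.60 and 1.45, against 1.29 and 1.57. Tnmd kept a ratio of 2.25 in the KO at E18.5 and 3.33 in the cKO, and Myh4 was at 0.09 in the former and -0.91 in the latter, against -1.16 and -1.17 in the controls. Ankrd1 was at 3.38 and 1.80, against 2.94 and 2.997, and the Kcnc4 ratio of 0.37 in the cKO was below the 1.77 and 2.19 of the controls. Of junction spots, 11 (9.02%) in the KO at E18.5 and 55 (23.2%) in the cKO were also endplate spots.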

How the data were processed

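The authors aligned Visium reads to mm10 (GRCm38) with Space Ranger (2.0.0 in 3 sections and 2.0.1 in 5, per the file headers) and deposited unnormalized UMI counts for 19465 genes per spot. The probe set measures each gene by short probes, so a count can miss isoforms. Deposited scores of spatial autocorrelation were not used. Spots under 1000 UMIs were left out, no doublet caller was run, and no depth thinning was applied.

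UMI counts were summed per section and region and tested with edgeR 4.0.16 (R 4.3.3; filterByExpr, TMM, quasi-likelihood F test, adjusted p under 0.05) with a section block. The 5 control sections shared 1 estimate of the spread, with 3 residual degrees of freedom, and each contrast was taken at E18.5. In the first comparison the spread borrowed from other genes weighed 15.1 prior degrees of freedom against these 3. Regions of 1 section come from the same tissue, and their deviations from the region means correlated by 0.162 to 0.750 across sections, so the block was kept. Nothing in the labels says that sections of a group came from separate litters. The p-values measure only how the difference between regions varied among these sections, moderated by the spread borrowed from other genes. Junction and other spots were chosen from the same spots that were tested, and tested genes were not part of the rule. Levels are UMIs per 1000000 of a region's sum, and in the first comparison ratios of them exceed fitted fold changes by about the 0.26 shift given above, while in the second they lie below them (shift -0.35). In data simulated on the first comparison (13688 genes), 91.0%, 98.5% and 100% of genes changed 1.5, 2 and 3 times were called. These data gave all genes 1 common spread, and only 67, 67 and 66 genes, chosen above a floor of mean counts, were changed. The shares are therefore not the power of the test in the real data.

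Members, gene lists and tests were chosen with earlier results of these data known. Named were the 14 largest rises and 10 largest falls with mean log2 CPM of at least 5 and the same direction in both sections. The 6 genes of the second comparison had the largest rises there among genes called higher in the first. Up to 4 per direction of the later comparisons and up to 4 per list were added. Actc1, Ccnb1, Hba-a1, Murc, Myod1, Rrm2, Vgll2 and Xirp2 were listed but not analysed here. Some results that the rule would name are not reported here. For the first comparison 21 other settings were tried, DESeq2 1.42.0 among them.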

Additional observations from a re-analysis of the deposited data

Results flagged for a closer look

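Counted here were the 14 named rises, 10 named falls, 6 genes named against the neighbors and those named for a stage difference. Of these, 24 differed between the stages in how far junction spots stood from other muscle (edgeR, adjusted p under the threshold). Of all 13683 genes tested, 10.8% did. Cited1 (1.21, adjusted p = 2.08e-07, edgeR) and Cd24a (0.68, adjusted p = 0.000562), named for other comparisons, differed as well and are not among the 24. Further genes named above were not counted. Tnmd, Ufsp1, Ache, Uchl1, Eef1a2, Frzb, Agt and Dok5 had been named for this difference, so their calls were fixed by that choice. The E18.5 minus E14.5 differences in log2 fold change of the 24 were as follows. Genes lower in junction spots than in the neighbors outside muscle had larger rises at E18.5, by 2.01 for Tnmd, 1.85 for Ecrg4, 1.45 for Fmod, 1.19 for Gas2, 0.98 for Prss35, 0.97 for Col11a1, 0.84 for C1qtnf3, 0.73 for Col12a1 and 0.73 for Ccn2. Uchl1 had 1.90 and Map1a 1.54. The genes named against the neighbors had 1.94 for Ufsp1, 1.90 for Ache, 1.38 for Myh1, 1.33 for Scn3b, 1.16 for Chrnd and 1.07 for Chrna1. The share of junction spots that were also endplate spots differed between the stages as well, at 26.3% and 18.48% in the E18.5 sections against 0 to 1.16% at E14.5, and its part in the differences of Ufsp1, Ache, Chrnd and Chrna1 was not tested. Other muscle also lay nearer to tissue outside muscle at E14.5, and the part of that was not tested either.

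The difference was negative for Eef1a2 (-2.32), Frzb (-1.92), Agt (-1.66), Dok5 (-1.51), Phkg1 (-1.01), Calml4 (-0.70) and Mstn (-0.69). At E18.5 Dok5 was at 28.7 and 29.0 CPM in junction spots against 20.5 and 22.4 in other muscle, and its fitted difference of 0.17 did not pass there.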

How the results depend on the processing

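The first comparison called 4364 genes, but 1873 with DESeq2, 1065 with no replicate block, 1452 with tendon-rich spots left out, 522 with the muscle spots above the median muscle score, 2495 with spots away from edge and endplates, 9316 scaled to the 9 muscle genes, and 2338 to 2848 with either E18.5 section left out. The second called 5682, with 3211 by DESeq2 and 3726 to 4380 with a section left out. The third called 25, with 3 by DESeq2, 68 without the filter on low counts, 1 with no replicate block, 72 with the E18.5 sections alone, 13 for the top 10% of spots, and 6 to 86 with a section left out. The fourth called 1475, with 518 by DESeq2, 58 with no replicate block and 688 to 1062 with a section left out. The fifth called 2489, with 552 by DESeq2, 460 with no replicate block, 1295 for the top 25% and 1110 to 1787 with a section left out. The higher share of calls in the first comparison was 31.6%, and 47.2% with the E18.5 sections alone, 85.5% with all UMIs and 98.8% with the muscle genes.

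The differences of the 6 genes named in the second comparison turned in sign in the first comparison, not always with a call. By position alone they were Ache -0.77, Chrna1 -1.12, Ufsp1 -1.096, Chrnd -0.78, Scn3b -0.62 and Myh1 -0.13, which did not pass. With Map3k7cl left out of the score they were Ache -0.10, Chrna1 -0.48, Ufsp1 -0.43, Chrnd -0.42 and Scn3b -0.16. Without endplate spots Chrna1 was at -0.37 and Chrnd at -0.39, and away from edge and endplates at -0.18 and -0.26, where neither passed. Endplate genes chose the spots that were left out, so these values are not independent of that choice. Over all settings and named genes 838 values kept direction and call, 35 lost the call and 15 reversed in direction, not all of them with a call. The cause was not tested. With 2 sections at E18.5, the spread rests largely on the E14.5 controls and on that borrowed from other genes. Genes at a few CPM rest on few UMIs. The scaling to all UMIs, the regions without endplate spots and those away from edge and endplates were chosen after seeing the data.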
